A study of Mus musculus with 40 samples.

Results

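The effect of the post-weaning diet on liver DNA methylation was examined in mice born from high fat (HF) fed dams. The 20 mice were those whose labels gave a high fat maternal diet, out of 40 mice in all. They fell into 10 mice fed HF after weaning (HH, the maternal diet being named first) and 10 mice fed a low fat (LF) diet after weaning (HL). All were C57BL/6 males (C57BL/6J in the methods of the study) whose liver was taken at 9 weeks. Both groups shared the HF diet of the dams, which began before mating and lasted through lactation, so HH mice never left the HF diet and HL mice changed diet at weaning. The other 20 mice, born from LF fed dams and fed HF (LH, 10 mice) or LF (LL, 10 mice) after weaning, share no mouse with HH and HL and served as an independent set for the same contrast. The labels give no litter, cage or sequencing lane. Pups of a cage were divided between the diets at weaning, so siblings may stand on both sides of the contrast, and p-values measure the spread between mice.

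In mammals, DNA methylation is mostly found at cytosines followed by a guanine (CpGs). CpGs are largely unmethylated in CpG-rich promoters and largely methylated elsewhere, and intermediate levels are often found at regulatory regions, at imprinted loci and where a tissue holds several cell types. The liver turns over dietary fat and cholesterol, and its gene expression responds to the diet within days. Methylation was measured by reduced representation bisulfite sequencing, which reads CpGs next to the cut sites of the enzyme MspI. The value of a CpG in a mouse is the percentage of reads that were methylated, and differences are given in percentage points as HH minus HL.

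The sequences around the 3 CpGs with a false discovery rate below 5%, and around CpGs of Rarres1 and Zc3h12a described further below, are shown first. They were read from the plus strand of the mouse genome (build mm9, NCBIM37), 5′ to 3′, and capitals mark each CpG tested in that window on either strand. The Scara5 window (chr14:66378372-66378527) runs from the end of intron 7 into coding exon 8, the Rarres1 window (chr3:67318471-67318565) lies in the intron after exon 1, and the other windows hold 1 tested CpG each, in an intron of Phf20 (chr2:156049824-156049885), in an untranslated exon of Rhof within Tmem120b (chr5:123553836-123553865) and in a coding exon of Zc3h12a (chr4:124799578-124799639).
Scara5: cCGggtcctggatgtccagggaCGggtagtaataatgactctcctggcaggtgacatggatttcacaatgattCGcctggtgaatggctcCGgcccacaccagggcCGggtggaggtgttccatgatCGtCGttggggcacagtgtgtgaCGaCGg
Rarres1: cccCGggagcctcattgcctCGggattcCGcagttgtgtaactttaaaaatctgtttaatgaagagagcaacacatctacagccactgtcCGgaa
Phf20: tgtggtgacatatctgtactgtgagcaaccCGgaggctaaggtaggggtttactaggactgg
Rhof and Tmem120b: ctcctctgcccctcCGgaagagagttggca
Zc3h12a: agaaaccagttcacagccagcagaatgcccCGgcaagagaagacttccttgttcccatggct

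The reads at CpGs summed to 2969907 to 23345592 in HH mice and to 6717178 to 15680735 in HL mice. Of 400298 CpGs listed, 262317 carried a total of 10 reads or more in 36 or more of the mice, and 242393 of these varied within HH or HL and were tested. The mice HH 8 and HH 9 (numbered in the order of the samples) were the shallowest, lacking 29.1% and 42.1% of these CpGs, whereas no HL mouse lacked more than 6.35%. The deepest mouse, HH 2, had the lowest mean methylation, and HH 1 stood apart from the other HH mice at Scara5. The counts of calls, the Scara5 values and the mean methylation of a mouse are given with and without the mouse that each of them rests on. Over the 90 pairs of mice within HH or within HL, the mean squared difference at CpGs of 20% to 80% methylation was 1.20 to 1.84 times what read counting alone gives. The pairs are different mice, so this ratio includes the spread between mice and does not measure the agreement of libraries. The interval of a single CpG was wide: among 14445 CpGs of 20% to 80% methylation with a value in all 20 mice, the median half-width of the 95% interval of the difference was 10.2 points, which covers mice and reads together.

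The question was whether the diet fed after weaning changed the methylation of single CpGs in the liver of these mice. At a false discovery rate (FDR) below 5%, 3 CpGs differed (0.00124% of those tested), and all 3 were less methylated in HH. They lay in Phf20, in Rhof within Tmem120b, and in Scara5. None of the 3 calls held in a model with runs of neighbouring mouse numbers as a block (smallest FDR = 0.141 over all CpGs, and 0.785, 0.529 and 0.785 for the Phf20, Rhof and Scara5 CpGs). The labels do not say what the numbers mean, 3 of the 6 runs held mice of 1 diet only (7 mice), and the differences in that model were -19.0, -19.1 and -39.6 points. By exact Wilcoxon tests and by limma 0 CpGs passed as well (smallest FDR = 0.875 and 0.0524). At an unadjusted p below 0.05, 3539 CpGs were higher in HH (1.46% of those tested) and 6310 were lower (2.60%), so that 64.1% of them were lower. Among these same CpGs, 65 were more than 20 points lower in HH and 6 were more than 20 points higher, which is not separate evidence of the direction. Between LH and LL, 5292 CpGs were higher in LH and 4317 were lower at an unadjusted p below 0.05 (4.03% of those tested). All 10 CpGs with the smallest p-values were lower in HH.

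**Figure D1:**
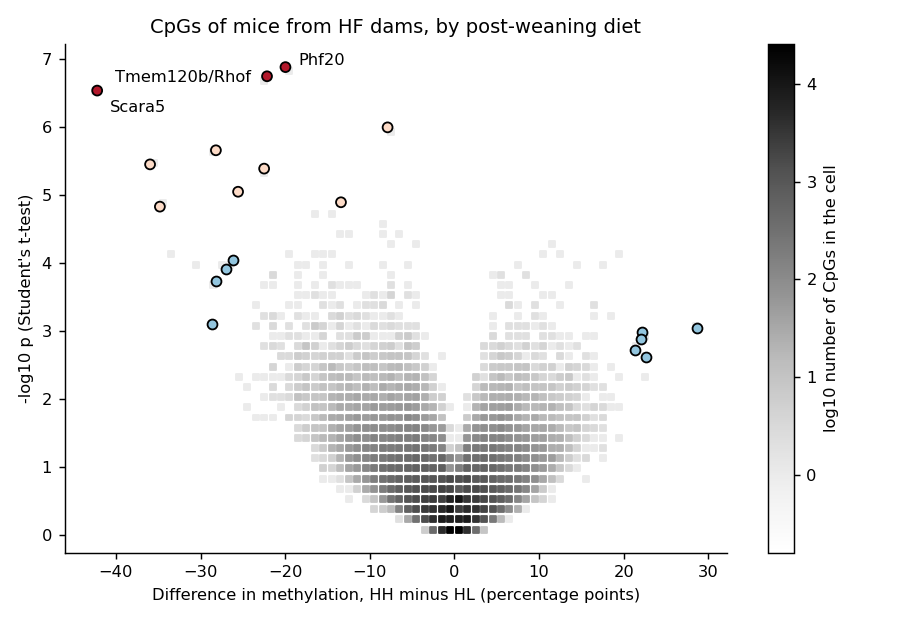
Difference in methylation between HH and HL in percentage points (x axis) against -log10 of the unadjusted p of Student's t-test (y axis) for the 242393 CpGs tested, with grey squares shaded by the number of CpGs. Dark red circles are the 3 CpGs with an FDR below 5%, pale circles the other 7 of the 10 CpGs with the smallest p, and blue circles the remaining CpGs among the 5 largest falls and the 5 largest rises, and the upper part of the plot is filled on the left side only.

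The clearest group of CpGs was in Scara5, which encodes a scavenger receptor that takes up ferritin (chr14:66285240-66383663, plus strand). CpG 66378499, in exon 8 (66378422 to 66378616) of the coding sequence, had values of 23.5% to 51.9% with a median of 36.7% in the 8 HH mice with data, and of 60.9% to 96.2% with a median of 77.5% in the 10 HL mice. Every HH mouse measured lay below every HL mouse. The means were 37.1% ± 9.29 (SD) in HH and 79.3% ± 11.5 in HL, a difference of -42.2 points (SE 5.03, FDR = 0.0236 by Student's t-test, two-sided exact permutation p = 2.3e-05, the smallest that 8 against 10 mice can give). The reads behind a value numbered 13 to 51. HH 8 and HH 9, the shallowest mice, had no value there.

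All 9 tested CpGs of this stretch, from 66378373 to 66378525, were lower in HH, with differences of -42.2 to -11 points, and 7 of them had an unadjusted p below 0.05. They share reads and are not independent of each other. CpGs 66378522 and 66378525 of exon 8 were at 50.7% ± 15.0 and 57.7% ± 16.9 in 8 HH mice and at 86.7% ± 6.24 and 92.5% ± 5.85 in HL. These 2 CpGs fell short of the threshold (FDR = 0.142 and 0.361, exact permutation p = 9.1e-05 and 0.00018). The difference was largest in the exon, and the 2 CpGs of intron 7 differed by -18.1 and -11 points.

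A single mouse set the upper end of HH. Averaged over the 9 CpGs, HH 1 was at 75.4%, whereas the other 7 HH mice with a value lay between 36.9% and 46%. In HL the averages ran from 56.0% in HL 1 to 84.1%. As a bin of 1 kb, Scara5 was at 45.3% ± 12.6 in HH and 72.3% ± 7.87 in HL (difference -27.0, FDR = 0.225, exact permutation p = 3e-04). When HH 1 was left out the bin difference was -31.3 points and passed the FDR threshold, and 6 CpGs passed it in place of 3, of which 4 were in Scara5. When both HH 1 and HL 1 were left out 5 CpGs passed, 4 of them in Scara5, a choice made after seeing the data.

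**Figure D2:**
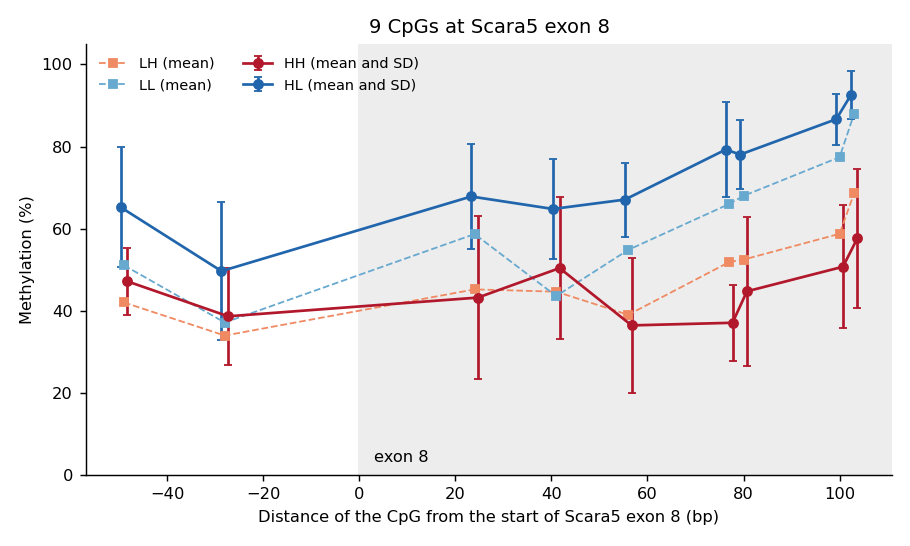
Methylation (y axis, %) of the 9 tested CpGs against their distance in bp from the start of Scara5 exon 8 (x axis, exon shaded). Circles and bars are the mean and SD of HH and HL, squares the means of LH and LL, and HH lies below HL at each CpG, with differences of -42.2 to -11 points.

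In mice born from LF fed dams, which were not used to find this stretch, 8 of the same 9 CpGs were lower in LH than in LL and 5 had an unadjusted p below 0.05. The bin was at 48.4% in LH and 60.5% in LL, a difference of -12 points (exact permutation p = 0.00061). Of all bins, 5.34% had p below 0.05 in this contrast. CpG 66378499 differed by -14.2 points there (exact permutation p = 0.0025). CpG 66378525 differed by -19.3 points (exact permutation p = 3.2e-05). Scara5 was thus lower after HF feeding in both sets of mice. The larger difference in mice from HF fed dams is a description, because the stretch was chosen there.

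The other CpGs past the threshold each stood alone. CpG chr2:156049854 lies in an intron of Phf20 (chr2:156022202-156135688, plus strand), 751 bp after an annotated start, and Phf20 encodes a reader of methylated histones that is part of a histone acetyltransferase complex. Its methylation ran from 41.7% to 60.7% with a median of 50% in the 10 HH mice, and from 62.1% to 75.8% with a median of 70.8% in the 10 HL mice. The groups did not overlap, and the means of 50.2% ± 6.33 and 70.2% ± 4.13 differed by -20.0 points (SE 2.39, FDR = 0.0218, exact permutation p = 1.1e-05, the smallest possible for 10 against 10 mice). Without the shallow mice HH 8 and HH 9, left out after seeing the data, its FDR was 0.0546, while the Rhof and Scara5 CpGs still passed and a CpG of Zc3h12a passed too. No other tested CpG lay in its bin. In mice from LF fed dams it was at 51.5% ± 12.8 and 55.4% ± 9.92, a difference of -3.91 points (exact permutation p = 0.454).

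CpG chr5:123553851 lies in exon 6 of a Rhof transcript (123553053 to 123554537, untranslated), which overlaps Tmem120b on the other strand and the long non-coding RNA Gm17627. Rhof encodes a small GTPase and Tmem120b a membrane protein. Values were 37.5% to 48.7% with a median of 46.2% in the 9 HH mice with data and 56.2% to 77.4% with a median of 66.3% in HL, with no overlap. The means were 44.3% ± 3.80 and 66.4% ± 7.01, which differed by -22.2 points (SE 2.63, FDR = 0.0218, exact permutation p = 1.1e-05). The 1 other CpG of the bin differed by -8.97 points, and LH minus LL was -7.46 points (exact permutation p = 0.281).

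When each of the 20 mice was left out in turn, the FDR stayed under 5% in 10 cases for the Phf20 CpG, in 10 for the Rhof CpG and in 8 for the Scara5 CpG. The spread within the groups at the Phf20 and Rhof CpGs was smaller than read counting alone would give. At the Phf20 CpG counting 11 to 58 reads predicts an SD of 11.2 points in HH and 8.48 in HL, and over both groups the observed spread was 0.539 times the predicted one. At the Rhof CpG the ratio was 0.568, and at Scara5 CpG 66378499 it was 1.19. Among the 14445 CpGs of 20% to 80% methylation with a value in all 20 mice the median ratio was 1.15, and 0.0208% and 0.0346% of them were at or below the ratios of the Phf20 and Rhof CpGs. A quasi-binomial model on the reads, in which the spread cannot fall below counting error, called no CpG (FDR = 0.766 for Phf20 and Rhof and 0.203 for Scara5, with unadjusted p of 5.9e-05, 0.00012 and 9.7e-07, and 4731 CpGs higher and 7477 lower in HH at p below 0.05).

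**Figure D3:**
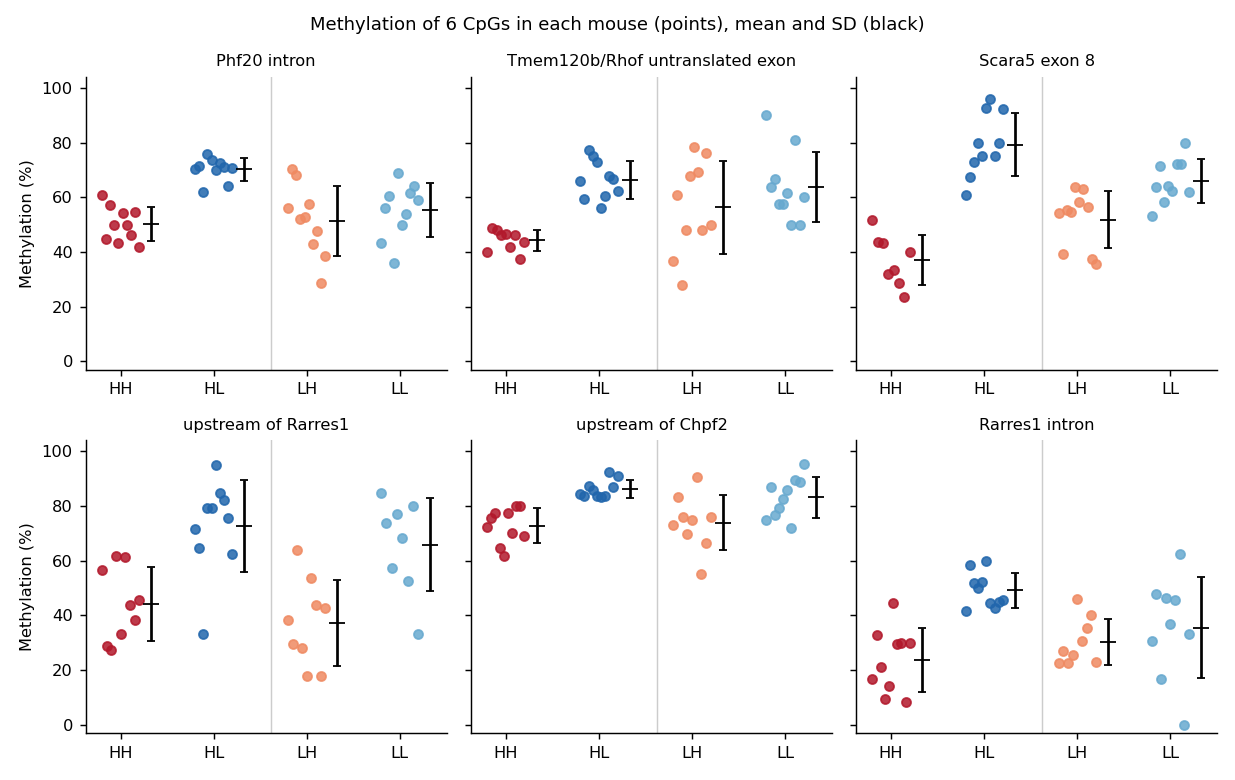
Methylation (y axis, %) in each mouse (points) with the mean and SD of each group (black) for the 3 CpGs with an FDR below 5% (upper row) and for CpGs upstream of Rarres1 and Chpf2 and in the first intron of Rarres1 (lower row). HH and HL do not overlap in the upper row, where the Phf20 means are 50.2% and 70.2%, and at the CpG upstream of Rarres1 LH and LL differ by -28.6 points.

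Groups with a value in all 20 mice that did not overlap were rare. Of 84646 such CpGs, 3 had every HH mouse below every HL mouse (0.00354%) and 0 had every HH mouse above. These were the Phf20 CpG, a CpG 1468 bp upstream of Chpf2 and a CpG at Ube2w, which was named after its values were seen. Chpf2 encodes an enzyme of chondroitin sulfate synthesis. CpG chr5:24091091 upstream of it ran from 61.8% to 80% with a median of 74.0% in HH and from 83.3% to 92.6% with a median of 85% in HL (difference -13.4, FDR = 0.346, exact permutation p = 1.1e-05). In mice from LF fed dams it differed by -9.27 points (exact permutation p = 0.0325).

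Rarres1, a retinoic acid responsive gene for a membrane protein (chr3:67282894-67319445, minus strand), was lower in HH at both stretches that were measured among the named CpGs. In the first intron all 4 tested CpGs were lower in HH, with differences of -25.6 to -3.04 points, and 3 had an unadjusted p below 0.05. CpG 67318474, which lies 971 bp after the start, ran from 8.33% to 44.4% with a median of 25.2% in HH and from 41.7% to 60% with a median of 47.7% in HL, and 9 of 10 HH mice were below the lowest HL mouse (difference -25.6, FDR = 0.273, exact permutation p = 4.3e-05). As a bin this intron had the smallest p of all bins, with 23.3% ± 5.67 in HH and 41.2% ± 6.99 in HL (difference -17.8, FDR = 0.106, exact permutation p = 3.2e-05). Between LH and LL the same bin differed by -7.40 points (exact permutation p = 0.0115).

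Farther upstream, 10391 bp before the Rarres1 start, CpG 67329836 showed the largest fall among CpGs with data in at least 9 mice of both groups. It ran from 27.3% to 61.9% with a median of 43.8% in HH and from 33.3% to 95% with a median of 77.5% in HL. The groups overlapped through HL 3, the lowest HL mouse, and the difference was -28.7 points (SE 7.04, FDR = 0.820, exact permutation p = 0.0015). Mice from LF fed dams differed by nearly the same amount, -28.6 points (exact permutation p = 0.0039). The neighbouring CpG 67329800 differed by -20.3 points in HH against HL and by -24.0 points in LH against LL.

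Zc3h12a encodes an RNase that degrades messenger RNAs of inflammatory cytokines. CpG chr4:124799608, in a coding exon 156 bp after an annotated start, ran from 9.09% to 41.7% with a median of 21.4% in 9 HH mice and from 35.3% to 62.5% with a median of 50% in HL. All but 1 of the HH mice lay below the lowest HL mouse, and the difference was -28.2 points (FDR = 0.107, exact permutation p = 5.4e-05). Its 2 neighbours in the bin differed by less, -4.42 and -5.53 points. The mean over the 20 CpGs of the Zc3h12a promoter was 3.40% ± 1.06 in HH and 5.38% ± 1.02 in HL (FDR = 0.639, exact permutation p = 0.00079). That promoter window includes CpG 124799608, so its difference is not separate evidence. With each CpG centred on its own mean the promoter differed by -1.575 points (exact permutation p = 0.0050). In mice from LF fed dams the CpG differed by -10.3 points (exact permutation p = 0.172).

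Pax2, a transcription factor gene of kidney development, had 1 CpG (chr19:44830552, 13 bp after the start in an untranslated exon) at 0 in all but 1 of 9 HH mice, the other at 3.33%, and at 4.76% to 13.6% in the 10 HL mice. The difference of -7.90 points (FDR = 0.0616, exact permutation p = 1.1e-05) was not shared by its bin, where 11 of 28 other CpGs were lower in HH and 1 had p below 0.05, and LH minus LL was 1.32 points. An intergenic CpG at chr8:9849422 ran from 40% to 55.6% in 8 HH mice and from 58.1% to 84.2% in HL (difference -22.5, FDR = 0.142, exact permutation p = 2.3e-05), but LH was 7.87 points higher than LL (exact permutation p = 0.182).

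Among CpGs with data in at least 9 mice of both groups, which leaves out the larger falls of Scara5 exon 8, the 5 largest falls further included Atg2a, Lgmn and Arhgap26, besides the CpGs of Rarres1 and Zc3h12a. In a coding exon of Atg2a, whose product carries lipid during autophagy, CpG chr19:6251304 was at 26.0% ± 9.58 in HH and 54.2% ± 16.4 in HL (difference -28.2, exact permutation p = 0.00017). In an intron of Lgmn, a lysosomal protease gene, CpG chr12:103675316 was at 41.1% ± 14.6 and 68.1% ± 9.80 (difference -27.0, exact permutation p = 0.00014). In an intron of Arhgap26, which encodes a GTPase-activating protein, CpG chr18:39523002 was at 60.4% ± 12 and 86.6% ± 10.5 (difference -26.2, exact permutation p = 0.00014). None of these passed the FDR threshold (0.736 to 0.820), and LH minus LL was -8.32, -11.7 and -8.69 points, with exact permutation p of 0.194, 0.0642 and 0.254.

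Rises were smaller in number. CpGs upstream of Rerg (22.6 points), a Ras-like GTPase gene, and of Bhlha9 (22.0 points), a transcription factor gene, were among the 5 largest rises without passing the threshold (FDR = 0.820 for both), and LH minus LL there was 0.810 and 5.43 points.

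The largest rise, 28.6 points at chr17:39981798, and a second of 21.4 points at 39981836 lay in 1 bin with 103 tested CpGs, close to the pseudogene AY036118. Reads at the first CpG reached 1085 in 1 mouse and had a median of 74, above the 12 to 54 reads that were the median per CpG of a mouse in HH and HL. Values ran from 56.0% to 90.2% in HH and from 8.33% to 61.9% in HL. On summed reads the first differed by 27.2 points and the second by 11 points (FDR = 0.766 for both), with 898 reads of the second from HH 2 alone, which was at 36.6%. Of the 103 CpGs, 10 had p below 0.05 and the median difference was 0.253 points. All 7 tested CpGs of the minus strand from 39981798 to 39981845 were higher in HH, with differences of 14.7 to 28.6 points and unadjusted p below 0.05. Of the plus strand, the 6 CpGs between them differed by -7.49 to 0.376 points, and the 6 from 39981770 to 39981794 differed by 5.95 to 17.8 points, with p below 0.05 at 1 CpG of each 6. They share reads, and LH minus LL at the first CpG was 0.745 points (exact permutation p = 0.937). Between LH and LL only 2 of the 103 CpGs were lower in LH, and 58 had an unadjusted p below 0.05.

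Averaging CpGs over bins of 1 kb lowers the counting error. Of 28945 bins tested, 0 passed an FDR of 5% by Student's t-test (smallest FDR = 0.106), 541 had an unadjusted p below 0.05 with higher methylation in HH (1.87%) and 1075 with lower methylation (3.71%). Limma called 2 bins, in Rarres1 and near Lrrc66, and a linear model in which the 4 groups shared their spread called 5. Beside Rarres1 and Scara5, the 10 bins with the smallest p included a bin outside genes, 58104 bp from the start of Lrrc66 (chr5:73963001-73964000), at 73.2% ± 6.66 in 8 HH mice and 89.2% ± 3.67 in HL (difference -16.0, exact permutation p = 4.6e-05). A bin 25289 bp upstream of Eif5, a translation initiation factor gene, differed by -17.8 points. A bin in Ank3, which encodes ankyrin G, differed by -8.61 points, and a bin in Gm20388 by -8.05 points in 8 HH and 10 HL mice (FDR = 0.225). Between LH and LL the Gm20388 bin differed by -1.61 points (exact permutation p = 0.703).

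The remaining bins differed by less. A bin in Dnmt3b, a de novo DNA methyltransferase gene, was at 91.9% ± 2.16 in HH and 95.8% ± 1.54 in HL, and a bin near Odf1 differed by -7.36 points. Bins near Mphosph6 and Fndc3a were higher in HH, by 4.38 and 2.83 points. In mice from LF fed dams, 4 of these 10 bins (Rarres1, Scara5, and those near Eif5 and in Ank3) were lower in LH with exact permutation p of 0.0115, 0.00061, 0.0402 and 0.0433. By Student's t-test, under which 5.34% of all bins had p below 0.05, the first 3 of these passed and the Ank3 bin did not (p = 0.0590 by that test, 0.0433 by exact permutation). The Dnmt3b bin was 1.29 points higher in LH (exact permutation p = 0.260).

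Promoters were windows from 1000 bp before to 500 bp after the start of a gene, and 0 of 9937 passed an FDR of 5% (smallest FDR = 0.639). At an unadjusted p below 0.05, 212 were higher in HH (2.13%) and 296 were lower (2.98%), and limma also called 0 past an FDR of 5%. The smallest p-values belonged mostly to unmethylated promoters with small differences. Cxxc1, which encodes a protein that binds unmethylated CpGs, was at 1.47% ± 0.233 in HH and 1.06% ± 0.166 in HL over 38 CpGs. Ywhaz, Slc29a4 and Bace2 were lower in HH (-0.968, -1.2 and -0.999 points), and 2900053O20Rik and Smyd3 were higher by 1.51 and 1.06 points. The methylated promoters among the first 10, Gm13093, Gm17262 and an internal promoter of Atg2a, were lower in HH (-7.14, -3.19 and -14.8 points). The Atg2a window includes the coding exon CpG named above.

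Gene lists of liver function were then examined at promoter CpGs. Over all promoter windows, 1.15% of 102533 tested CpGs had an unadjusted p below 0.05 with higher methylation in HH and 1.53% with lower methylation, and the median difference was -0.0718 points. No CpG of any of the 15 lists passed an FDR of 5%. Of cholesterol synthesis and uptake, 14 of 26 genes had tested CpGs, and of 80 CpGs 0 were higher and 1 was lower at p below 0.05 (median difference -0.290 points). That CpG lay 331 bp upstream of Srebf2, which encodes the master regulator of cholesterol synthesis, at 3.14% ± 2.31 in HH and 8.06% ± 6.85 in HL (exact permutation p = 0.0445), and LH was 5.72 points higher than LL. The Srebf2 promoter as a whole was at 1.17% ± 0.857 and 2.13% ± 0.965. Of bile acid synthesis and transport only 2 of 12 genes, Abcb4 and Cyp7b1, were covered, with 0 of 18 CpGs at p below 0.05.

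Among genes of fatty acid and triglyceride synthesis, 4 of 221 CpGs were higher in HH and 5 were lower, with a CpG of Acaca, the rate-limiting enzyme of fatty acid synthesis, at 3.08% ± 3.47 in HH and 8.49% ± 3.81 in HL (exact permutation p = 0.0026), and a CpG of Scd2, a desaturase gene, at 3.51% ± 3.77 and 13.3% ± 9.76. The shared promoter of Mttp, which loads lipid onto lipoproteins, and Rg9mtd2 was at 1.71% ± 0.641 and 1.12% ± 0.576. In fatty acid oxidation and ketogenesis, 6 of 121 CpGs were higher and 3 were lower, with a CpG of Hadha at 6.56% ± 4.49 in HH and 0.980% ± 1.61 in HL and a CpG of Ehhadh at 9.5% ± 4.85 and 3.79% ± 3.22, both genes of beta-oxidation enzymes. The promoter of Cpt2, which imports fatty acids into mitochondria, differed by 0.968 points (exact permutation p = 0.133).

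In the breakdown of branched-chain amino acids and propanoate, 2 of 71 CpGs were higher, in Dld and Dbt, and 2 were lower, and the Hibadh promoter differed by -0.456 points. In gluconeogenesis and glucose handling, 0 of 61 were higher and 2 were lower, in Ugp2 (-2.69 points) and Creb1 (-1.29 points). Of 223 CpGs of insulin signalling genes, 1 was higher, in Pik3r1 (6.15 points), and 2 were lower, 1 of them in Shc1 (-4.52 points), and of 19 promoters 1 was higher at p below 0.05, that of Mtor (0.663 points), and 1 was lower, that of Ptpn1 (-0.637 points). Of 273 CpGs of nuclear receptors, 1 was higher, in Rara, the retinoic acid receptor alpha gene (57.3% ± 11 in HH and 44.5% ± 7.38 in HL, exact permutation p = 0.0077), and 3 were lower, 1 of them in Esrrg (-5.11 points).

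In the circadian clock list 0 of 125 CpGs were higher and 3 were lower. A CpG of Npas2 (chr1:39251113), which encodes a clock transcription factor, was at 1.49% ± 1.69 in HH and 8.99% ± 5.07 in HL (exact permutation p = 0.00047), and a CpG of Arntl at 3.77% ± 4.71 and 9.71% ± 3.70. The promoter of Nr1d1, a nuclear receptor gene of the clock, was 1.03 points higher in HH (exact permutation p = 0.0319) and 1.52 points higher in LH than in LL (exact permutation p = 0.0060). In DNA methylation and one-carbon metabolism, 4 of 161 CpGs were higher and 3 were lower, with CpGs of Mbd2 (-6.31 points) and Mat2a (-6.20 points) having the smallest p, and the Mbd2 promoter was at 4.90% ± 1.43 and 6.09% ± 1.29, a difference of -1.19 points that became -0.622 when each CpG was centred on its own mean. In imprinted genes 0 of 166 CpGs passed p below 0.05, the closest being in Plagl1 (-12.1 points) and Grb10 (-2.57 points), and the Rasgrf1 promoter differed by 2.34 points.

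In acute phase and inflammation, 0 of 114 CpGs were higher and 3 were lower, with Tnfrsf1a (-16.1 points) and Irf1 (-4.47 points) first. The Tnfrsf1a promoter, of a receptor for tumour necrosis factor, was at 20.4% ± 8.80 in HH and 30% ± 8.31 in HL (exact permutation p = 0.0102). That difference was -5.97 points when each CpG was centred on its own mean, as mice covered different CpGs. Of the 13 promoters of this list 1 other passed p below 0.05, that of Rela, at 1.13% in HH and 0.513% in HL (0.615 points). The Mtor and Rela promoters were named after their values were seen.

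The tissue could be looked at only through promoter methylation. Of 25 hepatocyte identity genes 12 had tested promoter CpGs, and the median of their promoters ran from 1.72% to 3.47% in HH mice and from 1.82% to 3.20% in HL mice. Over all 9937 promoters the median ran from 1.95% to 2.22% in HH mice and from 2% to 2.09% in HL mice. The low level is thus not particular to hepatocyte genes and does not identify the tissue. In the hepatocyte list 1 of 140 CpGs was higher in HH and 2 were lower, 1 of them in Serpina1b (-12.5 points). Markers of other liver cells were thinly covered. Of 20 Kupffer and other immune cell genes only 2 had tested CpGs, 7 in all, with 1 lower, in Itgam (78.4% ± 8.79 in HH and 88.3% ± 5.99 in HL, exact permutation p = 0.0102), and defining markers such as Clec4f and Adgre1 gave no CpG. Of 22 stellate, endothelial and bile duct genes 8 were covered, and 4 of 132 CpGs were higher, with Lhx2 (3.44 points) first, and 1 was lower, in Des (-6.54 points), while the Sox9 promoter differed by 1.73 points, or by 0.888 points with each CpG centred on its own mean. In bulk liver a change in the mix of cells and a change within cells cannot be told apart.

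The mean methylation of a mouse, over the 34368 CpGs covered in all 40 mice, ran from 38.4% to 39.7% with a median of 39.4% in HH and from 39.4% to 40% with a median of 39.7% in HL. Of 10 HH mice, 6 were below the lowest HL mouse. The means were 39.3% ± 0.363 and 39.7% ± 0.164, a difference of -0.348 points (exact permutation p = 0.0038). HH 2 was the lowest mouse at 38.4%, and without it the difference was -0.247 points (exact permutation p = 0.0074). The difference was carried by partly and highly methylated CpGs: it was -1.03 points at CpGs of 20% to 80% methylation (exact permutation p = 0.0044, 0.0155 adjusted over 7 classes), -0.536 points at those above 80% (p = 0.0194 and 0.0272, exact permutation) and -0.0053 points at those below 20% (exact permutation p = 0.915).

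By annotation, introns and intergenic CpGs differed by -0.575 points each (exact permutation p = 0.0037 and 0.0117), exons by -0.376 points (exact permutation p = 0.0109) and promoters by -0.0777 points (exact permutation p = 0.0877), and adjusted over the 7 classes all but the promoters and the CpGs below 20% were under 0.05. Without HH 2, an alternative chosen after seeing the data, the difference was -0.437 points in introns, -0.390 in intergenic CpGs, -0.285 in exons and -0.0434 in promoters. It was -0.686 points at CpGs of 20% to 80%, -0.460 at those above 80% and 0.0286 at those below 20%, and the CpGs above 80% were no longer under 0.05 (adjusted p = 0.0519, exact permutation tests). With the mean methylation of the mouse as a covariate, which by its construction centres the differences, 49.9% of the CpGs at p below 0.05 were lower in HH instead of 64.1%, 0 CpGs passed an FDR of 5%, and 1 bin, near Lrrc66, passed it. The mean depended on which CpGs were averaged: over the 853 CpGs with at least 20 reads in all 40 mice the difference was 0.0511 points (exact permutation p = 0.963), and over every CpG a mouse covered it was -0.0281 points (exact permutation p = 0.952).

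**Figure D4:**
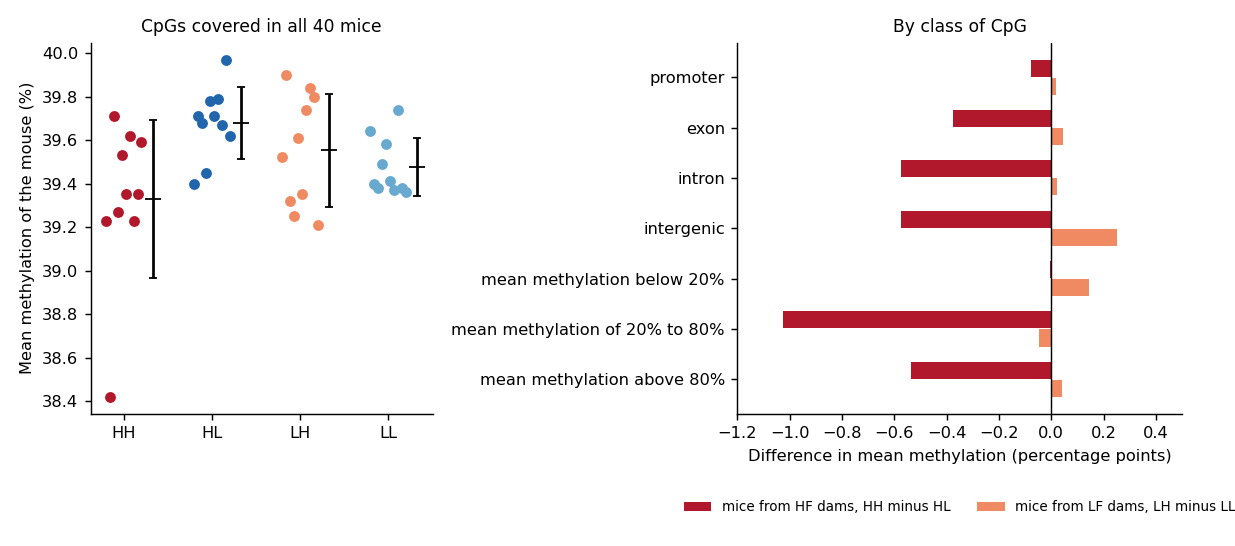
Left, mean methylation of each mouse (points, %) over 34368 CpGs with the group mean and SD (black), on an axis that does not start at 0. Right, difference of the group means in percentage points by class of CpG, for mice from HF dams (HH minus HL, red) and LF dams (LH minus LL, orange), which reaches -1.03 in HF dams for CpGs of 20% to 80% methylation and -0.0480 in LF dams.

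The shift in the mean was not seen in mice born from LF fed dams, where LH minus LL was 0.0797 points (exact permutation p = 0.394). The difference between both contrasts was -0.428 points (permutation p = 0.0054, maternal labels permuted within each post-weaning diet), and without HH 2 it was -0.327 points (permutation p = 0.0123). For single CpGs the interaction of maternal and post-weaning diet called 0 of 254765 CpGs and 0 of 28947 bins at an FDR of 5% in a linear model over all 40 mice, with 10639 CpGs and 1529 bins at an unadjusted p below 0.05.

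Over all CpGs the post-weaning differences of both sets of mice had little in common, with the same sign at 50.3% of 225796 CpGs and r = 0.0369 across CpGs, which are not independent replicates. Among the 209 CpGs with p below 0.001 in HH against HL the sign was shared by 62.2%, and 18 had the same sign and p below 0.05 in mice from LF fed dams while 2 had the other sign. Of the 19 CpGs named by the smallest p or the largest difference, 17 had the same sign in LH against LL and 6 had p below 0.05 there, all with the same sign, against 4.03% of all CpGs tested in that contrast. Among these 6 were the 3 Scara5 CpGs, which share reads and are not separate from each other, and those upstream of Rarres1 and Chpf2. Most of the named CpGs were partly methylated. Of the 39918 tested CpGs of 20% to 80% methylation, 1263 were higher and 1187 were lower in LH at p below 0.05 by Student's t-test. That is a larger share than over all CpGs.

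**Figure D5:**
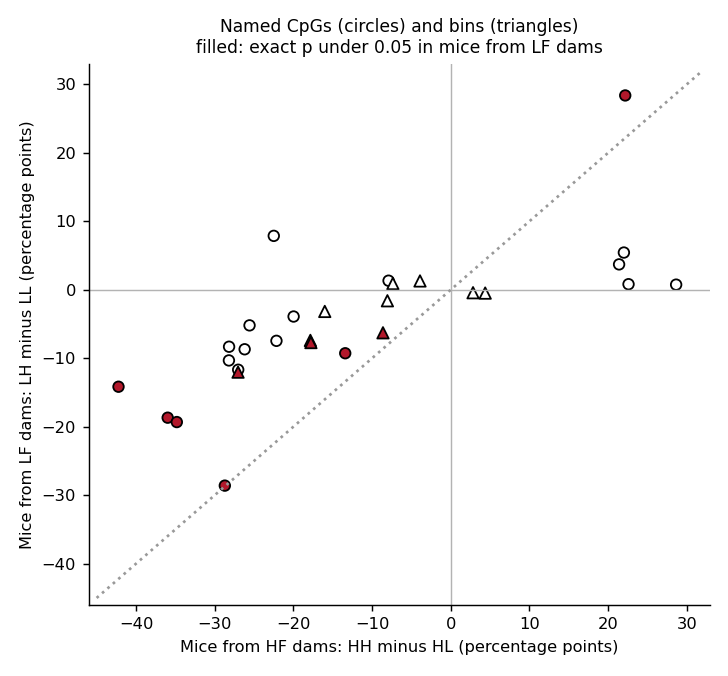
Post-weaning difference in percentage points in mice from HF dams (x axis) and LF dams (y axis) for the 19 named CpGs (circles) and 10 bins (triangles), filled where the exact permutation p of LH against LL was below 0.05, with a dotted line of equal differences. The filled points share their sign in both sets, with -42.2 and -14.2 points at Scara5 CpG 66378499 and -28.7 and -28.6 points upstream of Rarres1.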

How the data were processed

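Liver DNA of 40 mice was digested with MspI, size selected, converted with bisulfite and sequenced single-end by the authors, who aligned reads with Bismark (version not given in the sources used here) to mm9. They deposited for each CpG and mouse the count of methylated reads, the total count and the methylated fraction, not normalized, with totals under 10 reads missing. The 1386603 methylated counts without a total and 0 columns of no mapped mouse were left out. Groups were taken from the labels. Percent methylation was the methylated count over the total count. CpGs with a total in 36 of 40 mice, bins of 1 kb and promoters with at least 3 CpGs were compared by two-sided Student's t-test (as in the study's methods) with Benjamini-Hochberg adjustment over all features (scipy 1.17.1), and means and named CpGs by exact permutation tests. Alternatives included Welch's and Wilcoxon tests, a quasi-binomial model, limma 3.58.1, other coverage minimums, covariates and leaving out each mouse. Limma was run on log2 ratios with an offset of 0.5 for CpGs and on mean percent methylation for bins and promoters. The text names every CpG, bin and promoter past the threshold, the 10 of each with the smallest p, the 5 largest differences each way and the top items of 15 gene lists. The members and lists were chosen with earlier results of these data known. Annotation was GENCODE on NCBIM37, whose sequence had a CpG at all 399856 listed positions on its chromosomes. Some named features are not reported here. Scripts were tested on simulated data. Reads without molecular identifiers are not separate molecules, so counting error is a lower limit.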

Additional observations from a re-analysis of the deposited data

Results flagged for a closer look

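Of 74 groups of HH or HL values examined, 13 held a mouse far from the others by Dixon's test, which chance gives in about 1 of 20 groups, and the values overlap in their CpGs. HH 1 was the highest HH mouse at Scara5, at 84.6% for CpG 66378522 (the next was 54.3%), 96.3% for CpG 66378525 (the next was 60.7%) and 75.4% over the bin (the next was 46%). HH 2, the deepest mouse, was the lowest HH mouse for mean methylation, at 38.4% over all CpGs covered in all 40 mice (the next was 39.2%), 9.72% in promoters, 57.9% in introns, 58.5% in intergenic CpGs, 3.15% at CpGs below 20% and 53.3% at CpGs of 20% to 80%. HH 3 was the only HH mouse above 0 at the Pax2 CpG, at 3.33%. HL 3 was lowest at the CpG upstream of Rarres1, at 33.3%, HL 10 in the bin near Mphosph6, at 86.9%, and HL 9 in the bin near Odf1, at 79.3%.

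The post-weaning difference in mean methylation differed between mice from HF and from LF fed dams in 6 of 8 sets of CpGs examined, by permutation of the maternal labels within each post-weaning diet and unadjusted. The difference of the differences was -0.428 points over all CpGs (permutation p = 0.0054), -0.419 in exons (permutation p = 0.0203), -0.597 in introns (permutation p = 0.0180), -0.827 in intergenic CpGs (permutation p = 0.0057), -0.151 at CpGs below 20% (permutation p = 0.0319) and -0.977 at CpGs of 20% to 80% (permutation p = 0.0401). These sets share CpGs. Without HH 2, an alternative chosen after seeing the data, CpGs below 20% (-0.117 points, permutation p = 0.0635) and CpGs of 20% to 80% (-0.638 points, permutation p = 0.0826) no longer passed, and the other 4 did, at -0.642 to -0.327 points. At CpGs below 20% LH minus LL was 0.145 points (exact permutation p = 0.0109) and HH minus HL was -0.0053 points (exact permutation p = 0.915).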

How the results depend on the processing

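Depth limited single CpGs, since 10 reads give steps of 10% and the shallow mice HH 8 and HH 9 lacked many CpGs. The count of 3 CpGs with an FDR below 5% became 0 with exact Wilcoxon tests (3244 CpGs higher and 5700 lower at p below 0.05), the quasi-binomial model, limma, minimums of 20 or 30 reads (2425 and 895 CpGs tested), values on at least 15 reads, the mean methylation of the mouse as covariate, or runs of mouse numbers as a block. It was 1 with CpGs covered in all 40 or in all 20 mice, 3 or 4 under every other planned setting that kept all 20 mice, 3 without HH 8 and HH 9 (2 shared with the main 3) and 5 without HH 1 and HL 1, both chosen after seeing the data. With a spread shared by the 4 groups 3 CpGs passed, all in Scara5 and 1 of them shared. Leaving out each mouse in turn gave 0 to 6 CpGs: 0 without HH 2, 4, 5, 6, 7 or 10 or HL 4, 5 or 10, 1 without HL 6 or HL 9, 5 without HH 3 and 6 without HH 1, with 2 to 4 without the others. No setting called a CpG that was higher in HH, and each of the 19 named CpGs kept its sign without any 1 mouse.

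The difference at the Phf20 CpG was -21.1 points on summed reads (FDR = 0.766), -19.9 on values of at least 15 reads (FDR = 0.315), -19.0 with the block (FDR = 0.785) and -20.0 without HH 8 and HH 9 (FDR = 0.0546), and -21.1 to -19.0 without each mouse (FDR 0.0024 to 0.0643). Bins past the threshold numbered 0 in the main test, 5 with a spread shared by the 4 groups, 1 with the covariate of mean methylation, 2 with limma, 2 without HH 1 and HL 1, and 0 to 2 without each mouse, the 2 arising without HH 1. Promoters stayed at 0 under all settings run. The difference in mean methylation was -0.0281 points over every CpG a mouse covers and reversed to 0.0511 points over CpGs with at least 20 reads in all 40 mice. It was -0.390 to -0.247 points without each mouse. No paired analysis was possible because the labels give no litter or cage by which mice of both diets could be matched. Runs of neighbouring mouse numbers, 6 in all, were tried as a block, although the labels do not say what the numbers mean. The cause of these changes was not tested.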
